A study of Mus musculus with 2 samples.

Results

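Peaks of a ChIP directed at PAX7, the paired box and homeodomain transcription factor of muscle stem cells, were described at 7 genes of calcitonin receptor, cyclic AMP (cAMP) and calcium-NFAT signalling: Calcr, Pde4b, Pde4d, Pde10a, Nfatc1, Nfatc2 and Nfatc3. Their peaks were taken by position alone. A peak belonged to a gene when its summit, the base with the most ChIP fragments, lay inside the gene's GRCm38 span or within 100 kb of it. This gave 17 of the 2977 peaks of the deposited list. The list was called on 1 chromatin immunoprecipitation (ChIP) library, made with an antibody against GFP, and 1 input DNA library. Both came from untreated muscle stem cells sorted by flow cytometry from C57BL/6 mice with the genotype Pax7-YFP KI, a knock-in of yellow fluorescent protein at Pax7. Age, sex and the number of mice, and whether the allele makes a fusion protein, are not given in the sources used here. ChIP from cells without the tag was not analysed here. After filtering the ChIP library held 10622111 tags and the input 20429667. With 1 library of each kind, no value has a replicate and nothing was tested between libraries. Peaks of 1 library share their source and are not replicates, so levels and counts are given as descriptions. The cell type cannot be checked by expression in ChIP data. Of 10 satellite cell marker genes, 6 had a summit inside or within 100 kb, Calcr and Pax7 among them, as did 3 of 4 endothelial, 1 of 3 leukocyte and 0 of 3 fibro-adipogenic marker genes. Of all protein-coding genes 31.6% did.

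Calcr encodes the calcitonin receptor, a G protein-coupled receptor on quiescent muscle stem cells that raises cAMP and acts through protein kinase A to hold these cells in quiescence. Phosphodiesterases end the signal: PDE4B and PDE4D hydrolyse cAMP, and PDE10A hydrolyses both cAMP and cyclic GMP. In the calcium branch, the phosphatase calcineurin removes phosphates from NFAT proteins, which then enter the nucleus and act as transcription factors. Nfatc1, Nfatc2 and Nfatc3 encode 3 of them, and NFATC2 is known from muscle for its part in myofibre growth.

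Calcr also hosts 2 microRNA genes, Mir489 and Mir653, and miR-489 is itself known to keep muscle stem cells quiescent. Their mature sequences are shown because both genes lie in the same transcription unit as the Calcr peaks. They are RefSeq sequences on the minus strand of GRCm38.p6, at chr6:3721897-3722003 for the Mir489 hairpin and chr6:3721301-3721385 for the Mir653 hairpin. Capitals mark the seed, bases 2 to 8.
mmu-miR-489-3p: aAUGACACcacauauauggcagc
mmu-miR-489-5p: uGUCAUAUgugugaugacacuuucu
mmu-miR-653-3p: uUCACUGGaguuuguuucagu
mmu-miR-653-5p: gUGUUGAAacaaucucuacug
No seed is shared among these 4 mature microRNAs. The nearest Calcr summit lay 19.4 kb from the Mir489 hairpin and 19.98 kb from that of Mir653, on the side of the gene's start. The sequences under the peaks themselves are not shown, as no genome sequence was used here.

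Peaks lay inside 4 of the 7 genes (57.1%), namely Calcr, Pde4b, Pde4d and Nfatc2. Over all 21770 protein-coding genes, 5.49% had a summit inside. The 7 genes are long, and among the 3489 protein-coding genes at least as long as Nfatc3, the shortest of them, 16.3% did. This set has only a lower length limit, and Pde4d (1301.8 kb), Pde4b (519.9 kb) and Pde10a (461.5 kb) are far above it. The long genes are therefore not matched to the 7 in length. With the 100 kb on each side counted as well, 6 of the 7 genes had a peak, against 31.6% of all protein-coding genes and 36.5% of the long ones. Pde10a and Nfatc1 had their only peak outside the gene. Nfatc3 had none. The genes were proposed with peaks of this list already known, so these shares describe the genes and do not test them.

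**Figure D1:**
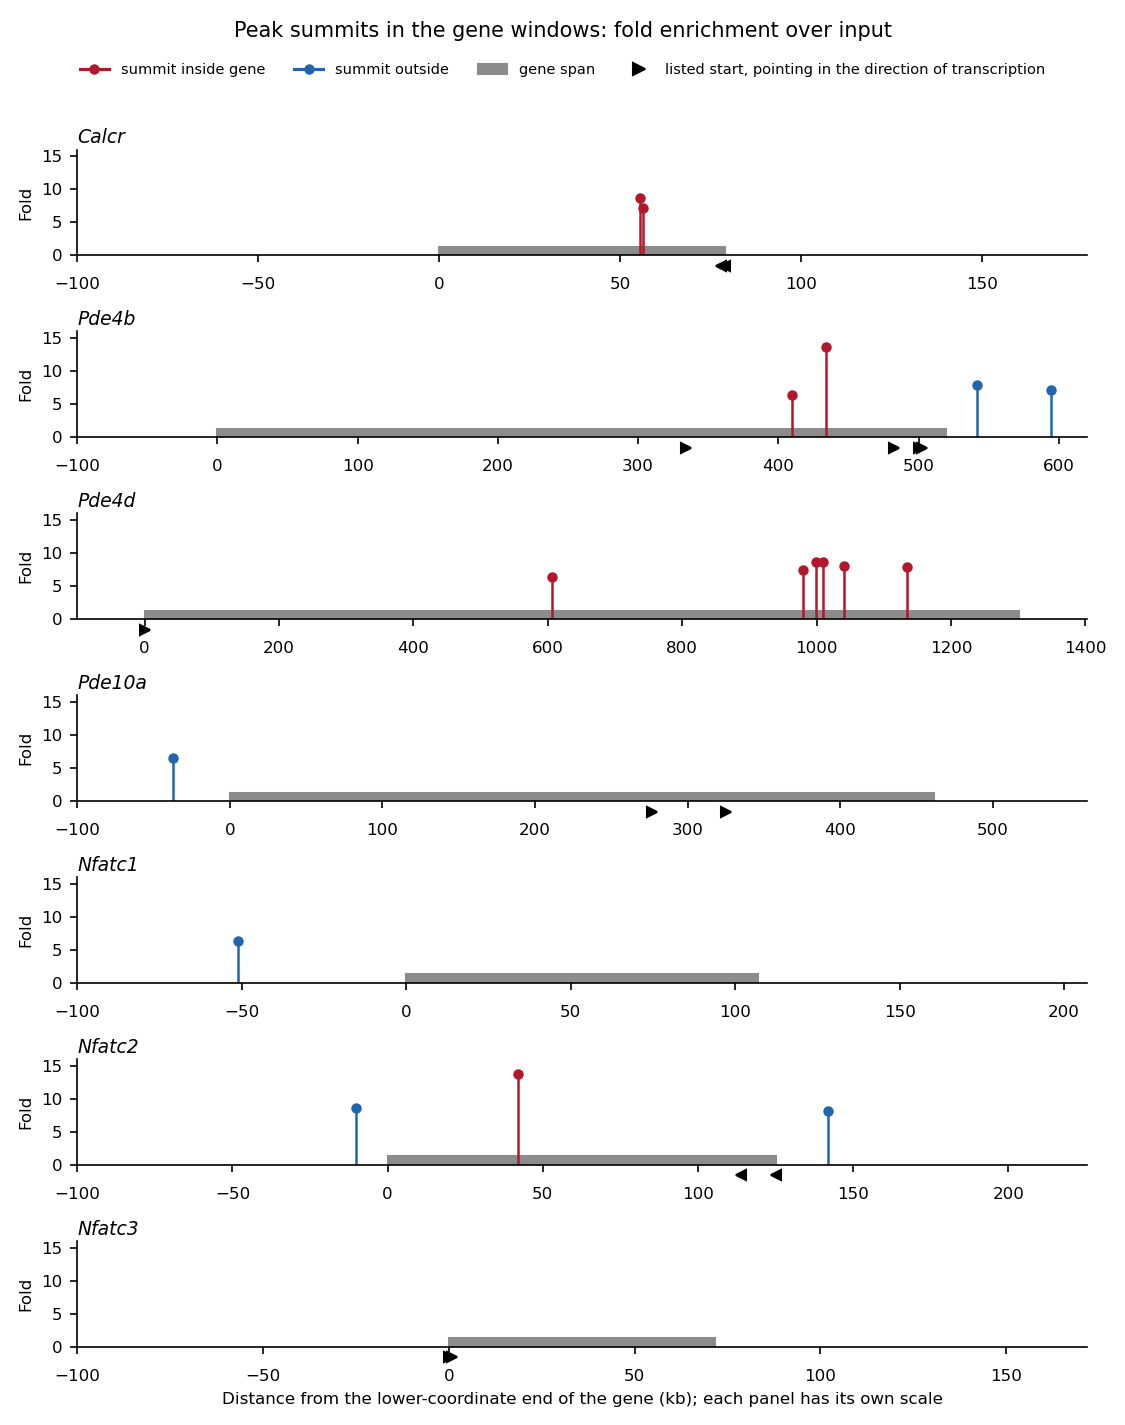
Position of each summit and its fold enrichment for the 7 genes, from 1 ChIP and 1 input library. Position is the distance in kb from the lower-coordinate end of the gene, with its own scale per panel. Height is the fold, on a linear axis from 0. The title says input, but the fold is over the caller's background, a genome-wide floor at 7 of the 17 peaks. Red marks summits inside the gene and blue those outside. Grey bars are gene spans and arrowheads are the gene starts listed in RefSeq (none is listed for Nfatc1). The 2 Calcr summits nearly coincide at this scale, 5 of the 6 Pde4d summits stand together in the last part of the gene, and Nfatc3 has none.

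Calcr (gene ID 12311, minus strand, chr6:3685678-3764713, 79.0 kb) held 2 neighbouring peaks and no peak outside. The first, chr6:3741246-3741479, had a fold enrichment over the caller's background of 8.60 (95% Poisson interval 5.13 to 13.6). Its pileup was 16 ChIP fragments at the summit. The second, chr6:3742015-3742229, reached 7.08-fold (4.01 to 11.8) from 13 fragments. At both Calcr peaks that background was the caller's genome-wide floor of 0.977 fragments and not a local input value. Fold and pileup are the authors' peak caller's values for each peak, and the intervals reflect counting error alone. These intervals overlap, so the 2 peaks cannot be ordered by strength. Their summits were 744 bp apart and the called regions were separated by 535 bp, more than the 172 bp fragment length, so no fragment was counted at both summits. No other neighbours among the 17 summits were within 1000 bp of each other. At 22.6 and 23.3 kb from the 5′ end of the gene, the summits stood at 28.6 and 29.5% of the span. Of the 2 starts listed for Calcr the nearer lay 21.5 kb from a summit, so neither peak is at a listed promoter. Exons and introns were not told apart here.

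Pde4b (gene ID 18578, plus strand, chr4:102087332-102607275, 519.9 kb) had 2 peaks inside and 2 beyond its 3′ end. The strong peak, chr4:102521267-102521697, reached 13.7-fold (9.10 to 19.8) from 26 fragments, higher than all but 2.59% of the whole list. Its background was also the genome-wide floor. The other inside peak, chr4:102496781-102496980, was 24.7 kb before it, at 6.37-fold (3.53 to 10.8) from 12 fragments. The intervals of these 2 folds overlap between 9.10 and 10.8. Both summits lay late in the gene, at 78.8 and 83.5% of the span, between the first and the second of its 4 listed starts. The strong summit was 48.5 kb upstream of the listed start nearest to it. Past the gene, chr4:102628727-102628945 stood 21.5 kb from the 3′ end, with 15 fragments at the summit and 7.84-fold enrichment (4.61 to 12.6). The last peak, chr4:102681709-102681940, was 74.5 kb away, with 13 fragments and 7.08-fold enrichment (4.01 to 11.8). It was nearer to another protein-coding gene, Sgip1, at 59.5 kb.

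Pde4d (gene ID 238871, plus strand, chr13:108654177-109955969, 1301.8 kb) had 6 peaks, all inside the gene, and none in the flanks. From 5′ to 3′ the pileups were 12, 22, 20, 16, 15 and 19 fragments. The folds in the same order were 6.37, 7.47, 8.64, 8.60, 8.09 and 7.81. All 6 intervals overlap each other, from 3.53 to 10.8 for the lowest fold to 5.44 to 13.1 for the highest, so no peak of the gene stands out. The order by fold was not that by pileup: chr13:109633145-109633448 had the most fragments (22) but also the highest local background of all 17 peaks, 2.08 fragments at ChIP depth. The widest region, chr13:109652645-109653316, measured 672 bp, where the median width in the list was 230 bp.

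Along Pde4d the first summit was 606.1 kb from the 5′ end and 373.0 kb from the next. The other 5 stood between 75.2 and 87.2% of the span, and successive gaps there were 19.5, 10.1, 31.5 and 94.3 kb. Their regions are chr13:109633145-109633448, chr13:109652645-109653316, chr13:109662779-109663078, chr13:109694309-109694525 and chr13:109788686-109788939, and the first peak of the gene is chr13:109260203-109260374. Of the 11 inside summits in the 4 genes, 8 (72.7%) lay past the midpoint of the gene counted from its 5′ end. Among summits inside other protein-coding genes with a listed strand and at least 10 kb from both ends, a filter that all 11 meet, 287 of 601 (47.8%) did. Since 5 of the 8 are from Pde4d alone, this describes mostly that gene. Per length, Pde4d held 4.61 peaks per Mb inside, close to the 3.85 of Pde4b and below the 7.98 of Nfatc2 and the 25.3 of Calcr. These densities rest on 6 inside peaks in Pde4d, 2 in Pde4b, 1 in Nfatc2 and 2 in Calcr.

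**Figure D2:**
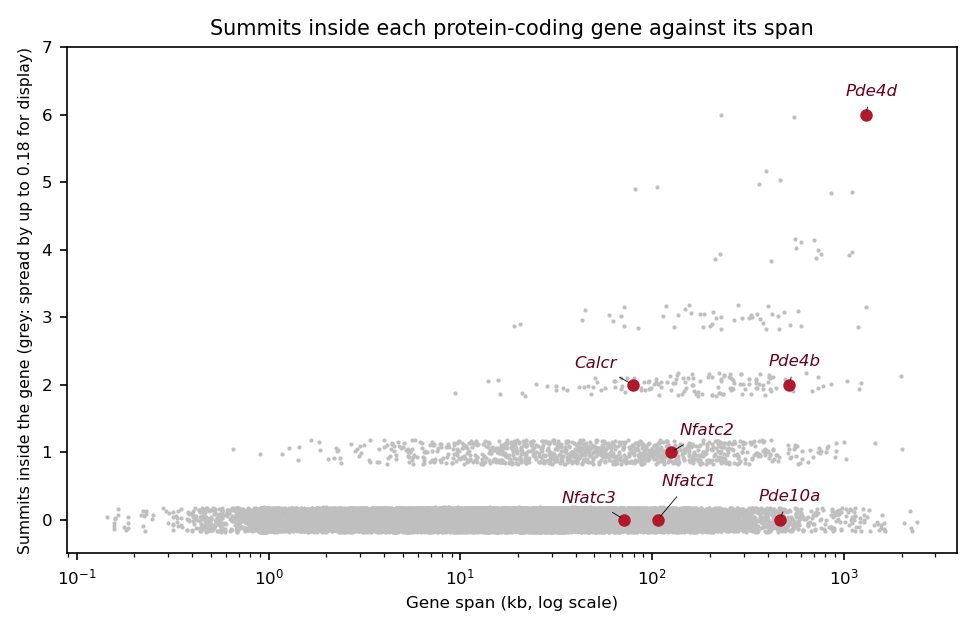
Number of summits inside each of 21770 protein-coding genes (y axis) against gene span (kb, log scale). Grey points are all other genes, spread vertically by up to 0.18 for display, and red points are the 7 listed genes at their exact counts. Pde4d is at 6 summits, the highest count on the plot, which it shares with Nsmce2 and Rad51b. Pde10a, Nfatc1 and Nfatc3 are at 0.

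Pde10a (gene ID 23984, plus strand, chr17:8525187-8986648, 461.5 kb) had no peak inside, with a span close to that of Pde4b. Its single peak, chr17:8487762-8487940, lay 37.3 kb upstream of the gene, at 6.47-fold (3.66 to 10.7) from 13 fragments. That summit was in no annotated gene. The listed starts of Pde10a are internal, and the nearest of them was 313.9 kb from the summit.

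Among the NFAT genes, Nfatc2 (gene ID 18019, minus strand, chr2:168476410-168601657, 125.2 kb) had a peak with the highest fold and pileup of the 17, though its interval nearly coincides with that of the strong Pde4b peak and the 2 cannot be ordered. It lay inside the gene at chr2:168518143-168518558, 66.6% of the way along the span, at 13.7-fold (9.21 to 19.7) from 27 fragments. Only 2.28% of the whole list had a higher fold. A peak beyond the 3′ end, chr2:168466198-168466434, reached 8.60-fold (5.13 to 13.6) from 16 fragments, 10.1 kb from the gene. On the 5′ side, chr2:168618192-168618431 reached 8.20-fold (5.16 to 12.5) from 20 fragments, and its summit was 16.7 kb upstream of the listed outer start. This summit lay between 2 genes and was slightly nearer to Atp9a, a gene for a membrane lipid flippase, at 16.1 kb. All 3 intervals of Nfatc2 overlap. The summits were spaced 52.0 and 100.0 kb apart.

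Nfatc1 (gene ID 18018, chr18:80606205-80713071, 106.9 kb) had 1 peak, chr18:80554895-80555186, which lay 51.2 kb outside the lower-coordinate end of the gene. Its pileup was 12 and its fold 6.37 (3.53 to 10.8), the same values as those of the weaker peak inside Pde4b and the first peak of Pde4d, since a whole-number pileup over the same background gives the same fold. The transcribed pseudogene Gm2176 was nearer to this summit, at 10.5 kb, but Nfatc1 was the nearest protein-coding gene. Nfatc3 (gene ID 18021, plus strand, chr8:106058818-106130537, 71.7 kb) had no summit in its window. The nearest was 422.1 kb from the gene, at 4.69-fold from 11 fragments.

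**Figure D3:**
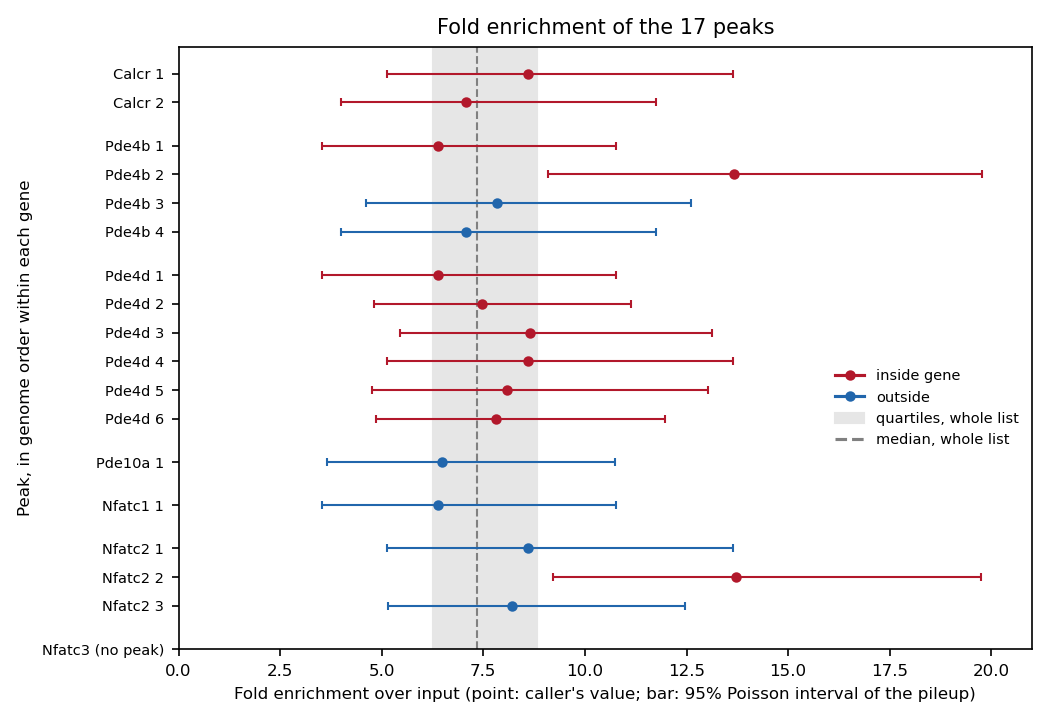
Fold enrichment over background (x axis, labelled as input, linear from 0) of each of the 17 peaks, in genome order within each gene. Points are the caller's values, bars are 95% Poisson intervals of the pileup, the grey band spans the quartiles of the whole list (6.27 to 8.82) and the dashed line is its median (7.35). The inside peaks Pde4b 2 and Nfatc2 2, both at 13.7, are the only points above 10.

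Inside and outside peaks were close in number per length and in strength. Of the 17 summits, 11 (64.7%, Wilson 95% interval 41.3 to 82.7%) were inside a gene, and gene spans made up 65.6% of the 4.07 Mb of windows. This is 4.13 peaks per Mb inside and 4.29 outside. Windows of all protein-coding genes held 1.43 per Mb inside and 1.38 outside, with 55.1% of their summits inside. The 7 windows together held 2.98 times as many peaks per Mb as those of all protein-coding genes (4.18 against 1.40). The factor was about the same inside (2.89) and outside (3.12). As the genes were proposed with peaks of this list already known, these factors describe the windows and are not a test. The inside pileups were 12, 12, 13, 15, 16, 16, 19, 20, 22, 26 and 27 fragments, and the outside pileups were 12, 13, 13, 15, 16 and 20. Their medians were 16 and 14, and the outside range lies within the inside range. The difference between these medians was 0.5 fragments with a 50 kb window and 3.5 when only the stronger part of the list was used. Over all protein-coding genes the order was the other way, 14 inside and 15 outside.

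The median fold of the 17 peaks was 7.84 and that of the whole list 7.35. Of the 17, 11 were above the list's median and 2 reached its upper quartile of 8.82, the inside peaks of Pde4b and Nfatc2. By fold, the other peaks at the calcitonin receptor, phosphodiesterase and NFAT genes lay between the list's quartiles. By pileup, 4 further peaks were above the list's upper quartile of 18 fragments, at 22, 20 and 19 in Pde4d and 20 upstream of Nfatc2. The background was at the caller's genome-wide floor of 0.977 fragments at 7 of the 17 peaks (41.2%) and at 1313 of the 2977 peaks of the list (44.1%). No background among the 17 was above 2.08.

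**Figure D4:**
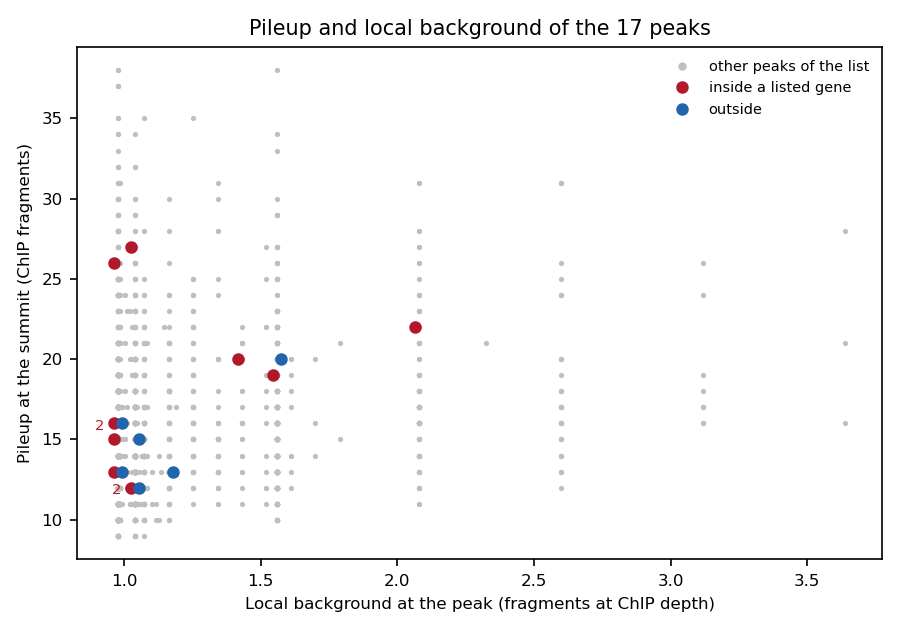
Pileup at the summit (ChIP fragments) against the caller's background (fragments at ChIP depth, labelled as local). The 17 peaks, in red for inside and blue for outside, are drawn over other peaks of the list in grey. Red and blue points are moved by 0.015 to the left and right so that both can be seen, small numerals give the number of peaks that share a point, and peaks with a pileup over 40 or a background over 4 are not drawn. Most of the 17 stand near the lowest background, and those at 26 and 27 fragments do so as well.

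Spacing within the windows ranged from 0.744 to 373.0 kb over 11 pairs of neighbours, with a median of 52.0 kb. The distance from each of the 17 summits to the nearest other summit anywhere had the same median, 52.0 kb, against 99.4 kb in the whole list. Another summit within 10 kb was found for 2 of the 17 (11.8%, the Calcr pair) and for 14.6% of the list. None of the 17 summits was within 1000 bp of an end of its gene. None of the 16 summits at genes with a listed start was within 1000 bp of such a start. The same shares over the whole list are not given here, so these counts describe the 17 summits only. The 250 bases before the 13 listed starts held no TAATTA, a homeodomain site (4.84% of all 32851 listed promoters hold it on either strand). Neither homeodomain dimer site, TAAT and ATTA with 2 or 3 bases between, was present (0.384% and 0.463% of all). With shares this low, 0 of 13 does not set these promoters apart. Of the 13, 9 held CANNTG, an E-box (66.2% of all), 9 GGAAA, an NFAT core (55.6%), and 4 TGACG, a cAMP response element core (17.8%). The promoter windows of the 13 starts hold none of the peaks, and no letters were searched under the peaks. Of the 57 other annotated genes in or across the windows, most of them not protein-coding, 0 held a summit. Only 5.49% of all protein-coding genes held a summit inside, so this count does not set the listed genes apart.

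Other genes of the same pathways were counted from a list of 76, all matched by symbol. A summit lay inside 10 of them (13.2%) and inside or within 100 kb of 32 (42.1%), beside 5.49% and 31.6% of all protein-coding genes. These genes are long too, with a median span of 71.7 kb, and among protein-coding genes at least as long as Nfatc3 the shares were 16.3% and 36.5%. The pathway list has no length limit and its median span is close to the span of Nfatc3, so many of its genes are shorter. Its shares and those of the long genes are therefore not for genes of like length, and they are not ordered here. In the receptor coupling and cyclase group, 1 of 16 genes had a summit inside. This was Adcy2, an adenylyl cyclase gene, at 14.2-fold from 28 fragments, 54.1 kb from its nearer end. Summits were inside 2 of 17 cAMP effector genes. Crem, which encodes a cAMP-responsive transcription factor, had 3, the strongest with a fold of 7.59 at 28 bp from a gene end. Yap1, the gene for a transcriptional coactivator restrained by LATS kinases, had 1 of 5.08. Among 13 other phosphodiesterase genes, Pde7b alone had summits inside, 3 of them, with folds up to 5.47.

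Calcineurin and its regulators had a peak most often of the 6 groups, inside 4 of 12 genes and inside or within 100 kb of 10 of 12. Rcan1, which encodes a calcineurin inhibitor that is itself induced by NFAT, had 2 summits inside, the stronger at 10.2-fold from 21 fragments (6.47 to 15.3). Rcan2, its paralog, had 1 with a fold of 9.10, Cabin1, another calcineurin inhibitor gene, 1 of 6.37, and Ppp3ca, a catalytic subunit gene, 1 of 6.07. Of the 7 other NFAT and NFAT kinase genes 0 had a summit inside, and 2 of them, Nfat5 and the kinase gene Dyrk1a, had a summit within 100 kb. Calcium entry and release genes had summits inside 2 of 11: Stim2, an endoplasmic reticulum calcium sensor, at 8.31-fold and Itpr2, an inositol trisphosphate receptor, at 6.58-fold. Windows of 100 kb also take in peaks at other genes, so the wider count is not one of peaks that belong to these genes.

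**Figure D5:**
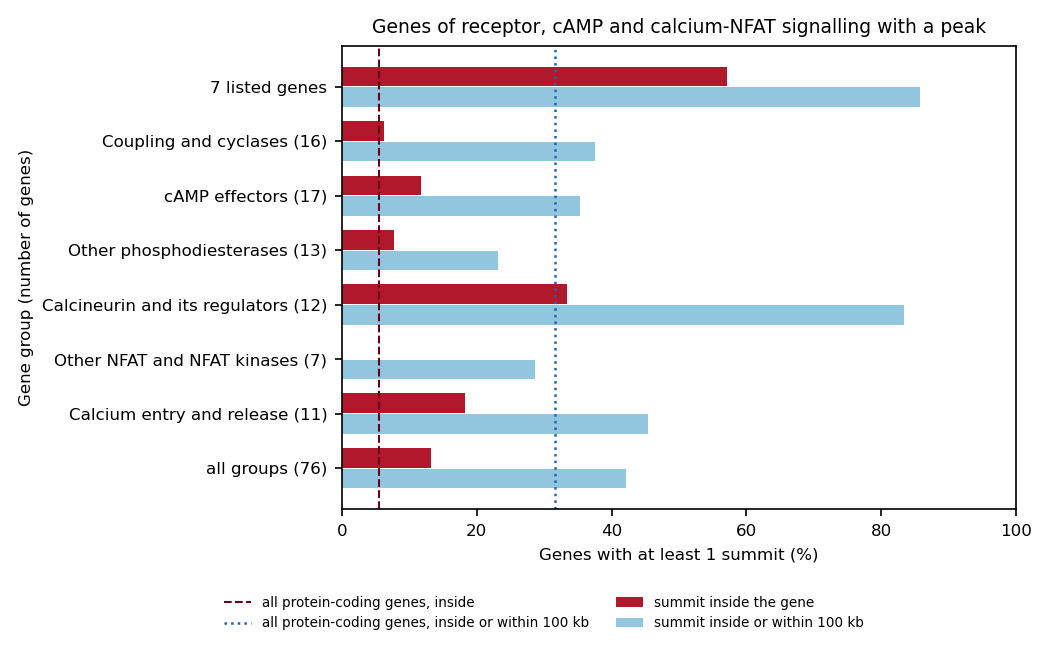
Percentage of genes with at least 1 summit (x axis, linear from 0 to 100%) for the 7 listed genes and for 6 groups of other pathway genes, with the number of genes in parentheses. Red bars count summits inside the gene, light blue bars those inside or within 100 kb, and the vertical lines are the same shares over all protein-coding genes (5.49% and 31.6%). The listed genes (57.1% and 85.7%) were proposed with results known, and calcineurin and its regulators follow at 33.3% and 83.3%.

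No peak of the listed genes was at a listed start. Only 1 start is listed for Pde4d, only internal ones for Pde10a and none for Nfatc1, so other starts could not be examined. Of the pathway genes, 4 had a summit within a listed promoter window, 250 bases before to 50 after a start. The summit was 118 bp upstream of a start of Rcan1, 160 bp upstream of Calm3, which encodes calmodulin, 147 bp upstream of Gnaq, which encodes a G protein alpha subunit, and 59 bp upstream of Itpr2. Their folds were 10.2, 10.1, 8.82 and 5.08. The 250 bases upstream of the Rcan1 and Calm3 starts are shown because these are the stronger of the peaks that could be read against sequence. They are RefSeq sequences of GRCm38.p6, 5′ to 3′ on the minus strand, at chr16:92400079-92400328 and chr7:16924033-16924282. Capitals mark TAATTA (homeodomain), TGACG (cAMP response element core) and GGAAA (NFAT core) on either strand.
Rcan1: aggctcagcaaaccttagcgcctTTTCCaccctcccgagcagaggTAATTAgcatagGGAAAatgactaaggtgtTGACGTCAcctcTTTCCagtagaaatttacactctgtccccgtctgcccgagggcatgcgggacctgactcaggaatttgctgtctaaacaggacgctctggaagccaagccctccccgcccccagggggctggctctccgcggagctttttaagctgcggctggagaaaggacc
Calm3: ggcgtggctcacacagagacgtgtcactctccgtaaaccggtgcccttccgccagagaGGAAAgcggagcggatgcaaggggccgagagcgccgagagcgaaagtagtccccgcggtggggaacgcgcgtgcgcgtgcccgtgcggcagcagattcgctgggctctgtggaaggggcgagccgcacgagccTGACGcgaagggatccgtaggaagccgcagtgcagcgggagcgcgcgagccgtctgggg

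In the Rcan1 window TAATTA occupied positions -205 to -200, counted from the start, and the summit was at -118. TGACG was found on both strands as overlapping matches, and GGAAA at 3 positions. The Calm3 window held TGACG and GGAAA once each and no TAATTA. In all 32851 listed promoters of this length, 17.8% held TGACG and 55.6% held GGAAA on either strand. A match of these letters is a description and not evidence of a site.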

How the data were processed

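The members and gene lists were chosen with earlier results of these data known. The genome build GRCm38 and the tools bcl2fastq, HISAT2 and MACS2 are named per the submitters' processing notes. Peaks were called by the authors with MACS 2.1.1.20160309 on 1 ChIP against 1 input library, without replicates or pooling, at a q-value limit of 0.01, with a fragment length of 172 bp and the larger input scaled to the ChIP depth, per the file headers. Per the file headers, duplicate tags had a rate of 0.00 in both libraries. Pileup, as deposited, is coverage: a signal equal to the number of ChIP fragments at the summit. Fold enrichment, as deposited, is the ratio of pileup + 1 to background + 1. The deposited −log10 p-values and −log10 q-values are the caller's; −log10 q was used only as a stricter limit.

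The background was recovered from pileup and fold. Intervals of folds are exact Poisson 95% intervals of the pileup with the background held fixed, and the share inside has a Wilson interval. Both cover counting error only. Gene spans came from a RefSeq table of GRCm38.p6, with 113 protein-coding genes on scaffolds or patches left out and 21770 used, and 2 peaks on unplaced scaffolds left out of gene counts. Strand and starts came from the RefSeq promoter table, which lists starts for 6 of the 7 genes. All peaks of the 7 genes are named. Pathway genes are named for a summit inside, up to 3 per group by fold; Ppp3ca, Calm3, Gnaq, Nfat5 and Dyrk1a were chosen after their values were seen. Counting was tested on simulated peaks. Python 3.11.15, pandas 2.3.3 and SciPy 1.17.1 were used. Alternatives were a stricter q limit, any overlap in place of the summit, a 50 kb window, no backgrounds of 10 or more, merging of summits within 1000 bp and, added after seeing the data, leaving out Pde4d.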

Additional observations from a re-analysis of the deposited data

How the results depend on the processing

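The 8 summary values of the 17 peaks were recomputed under 6 alternatives. Of the 47 recomputed values, 41 stayed close to the reported ones (counts, densities, spacing and median fold within 1.5 times, and the share inside within its interval). That interval is wide, 41.3 to 82.7%. Leaving out backgrounds of 10 or more could change none of the values, as no background among the 17 was above 2.08. Any overlap in place of the summit also left every value unchanged. The tally therefore says little about robustness. With only peaks at or above the list's median −log10 q of 8.40, there were 11 peaks and 2.71 per Mb, lower by construction. Genes with a peak inside or within 100 kb were 4 in place of 6, because this limit left out the only peaks of Pde10a and Nfatc1. The difference between the median pileups inside and outside was then 3.5 fragments. It was also 3.5 fragments with summits within 1000 bp merged and 0.5 with the 50 kb window. The medians moved because each setting kept other peaks. The 50 kb window left out outside peaks of 13 fragments at Pde4b and 12 at Nfatc1. Merging left out the Calcr peak of 13 fragments. Without Pde4d there were 11 peaks at 5 genes and 45.5% of them were inside, so the count and the share inside rest partly on that gene. A pileup of 12 to 27 fragments limits each fold. No paired analysis was possible because there was 1 library in each group.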

Other observations

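Pde4d, with 6, shared the highest number of summits inside any protein-coding gene of the list with Nsmce2, a SUMO ligase gene of 227.5 kb, and Rad51b, a DNA repair gene of 551.0 kb. Both were named after their values were seen. Most very long genes had no summit inside. Of the 59 protein-coding genes of 1000 kb or more, 14 had at least 1, and the median over the 59 was 0.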
